A study of Mus musculus with 15 samples.

Results

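The Fc receptor genes were followed through the RNAseq data of BMDMs, that is, macrophages that mouse bone marrow gives rise to in culture. They were chosen by symbol and are *Fcgr1*, *Fcgr2b*, *Fcgr3*, *Fcgr4*, *Fcer1g*, *Fcgrt*, *Fcrlb* and *Fcrls*, that is 8 of the 53465 genes in the count table. All 8 were found and all 8 passed the filter on low counts. The marrow came, per the methods of the study, from mice of 8 to 12 weeks. Cells were grown for 7 days in M-CSF at 20 ng/ml, and the cytokines were then given for 24 h. The groups were control (no added cytokine), IL-4 (10 ng/ml), IL-4/IL-6 (the same IL-4 and 40 ng/ml of IL-6), IL-13 (40 ng/ml) and IL-13/IL-6 (the same IL-13 and the same IL-6), with 3 libraries in each. IL-6 alone was not among the groups analyzed here, and the IL-4 and IL-13 doses differ, so that cytokine and dose cannot be told apart where the 2 are set side by side. The study calls the points of its RNAseq principal component plot biological replicates, and describes its data in general as coming from independent experiments. The labels of these libraries do not say whether they came from separate animals. The p-values measure the spread between these libraries.

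Fc receptors bind the constant part of antibodies and let phagocytes take up and respond to antibody-coated targets. In the mouse, the products of *Fcgr1* (FcγRI, the high-affinity IgG receptor), *Fcgr3* (FcγRIII) and *Fcgr4* (FcγRIV) are activating and need the common gamma chain, encoded by *Fcer1g*, which carries the ITAM that recruits the kinase SYK. The product of *Fcgr2b* (FcγRIIB) is the inhibitory IgG receptor, carries an ITIM and recruits the lipid phosphatase SHIP1. *Fcgrt* encodes the heavy chain of FcRn, which pairs with beta-2 microglobulin and rescues IgG from lysosomal breakdown inside the cell. *Fcrlb* and *Fcrls* encode Fc receptor-like proteins, of which FCRLB is intracellular and FCRLS is best known as a marker of microglia.

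Of the 8 genes, 5 lie together on chromosome 1, and the coordinates given here are those of GRCm38, the build in the submitters' processing notes. In this order, *Fcrlb* (chr1:170907273-170912941, minus strand), *Fcgr2b* (chr1:170958617-170976547, minus), *Fcgr4* (chr1:171018920-171029761, plus), *Fcgr3* (chr1:171051174-171064935, minus) and *Fcer1g* (chr1:171229572-171234365, minus) span 327 kb, with gaps of 45.7, 42.4, 21.4 and 165 kb between neighbors. *Fcgr1* (chr3:96282909-96293969, minus) and *Fcrls* (chr3:87250758-87263738, minus) lie on chromosome 3, and *Fcgrt* (chr7:45092990-45103851, minus) lies on chromosome 7. The inhibitory and the activating low-affinity receptor genes are close in sequence, and this bears on their counts. Of all stretches of 50 bases in the annotated transcripts, 166 were shared by *Fcgr2b* and *Fcgr3*, which is 2.92% of those of *Fcgr2b* and 9.58% of those of *Fcgr3*. Reads from these stretches cannot be assigned to either gene by sequence, and the counts of both are uncertain to an unknown degree. The longest shared run held 129 bases of coding sequence, at bases 402 to 530 of the *Fcgr2b* transcript and 313 to 441 of the *Fcgr3* transcript, and is shown as the longest of the stretches in which these 2 receptors of opposite sign cannot be told apart:
Fcgr2b and Fcgr3: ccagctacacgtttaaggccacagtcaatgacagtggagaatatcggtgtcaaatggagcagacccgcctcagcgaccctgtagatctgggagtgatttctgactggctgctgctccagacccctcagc
With any other gene, *Fcgr2b* shared 6.95% of its stretches in all, and *Fcgr1*, *Fcgr4*, *Fcer1g*, *Fcgrt*, *Fcrlb* and *Fcrls* shared 0. The strand setting of the counting is not given in the sources used here. The antisense gene *Gm38204* shares 155 exonic bases with *Fcgr2b* and had at most 12 counts in any library.

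The 250 bases before the RefSeq start sites (GRCm38.p6) were searched on both strands for TTCNNNGAA, the spacing bound by most STAT factors, for TTCNNNNGAA, the spacing preferred by STAT6, and for GAGGAA, the core of the site of the myeloid factor PU.1. Of all 32817 promoters of this length, 7.01%, 5.85% and 23.3% held these letters. The promoter of *Fcgr1* held TTCCCAGAA at -109 to -101 and the PU.1-type letters, on the opposite strand, at -55 to -50, and the 2 matches do not overlap. The promoters of *Fcgr3*, *Fcgr4*, *Fcrlb* and *Fcrls* held PU.1-type letters only, and those of *Fcgr2b*, *Fcer1g* and *Fcgrt* held none of the 3. A match is a description of the sequence. The promoters of *Fcgr1*, *Fcgr4* and *Fcrlb* are shown with their matches in capitals, read 5′ to 3′ toward the gene, because they hold a match and at most 6 bases of annotated UTR (chr3:96293970-96294219, minus, chr1:171018676-171018925, plus, and chr1:170912942-170913191, minus):
Fcgr1: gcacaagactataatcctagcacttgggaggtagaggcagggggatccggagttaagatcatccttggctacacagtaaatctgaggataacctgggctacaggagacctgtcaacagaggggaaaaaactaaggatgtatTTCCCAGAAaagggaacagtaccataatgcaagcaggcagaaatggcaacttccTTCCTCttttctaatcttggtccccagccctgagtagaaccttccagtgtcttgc
Fcgr4: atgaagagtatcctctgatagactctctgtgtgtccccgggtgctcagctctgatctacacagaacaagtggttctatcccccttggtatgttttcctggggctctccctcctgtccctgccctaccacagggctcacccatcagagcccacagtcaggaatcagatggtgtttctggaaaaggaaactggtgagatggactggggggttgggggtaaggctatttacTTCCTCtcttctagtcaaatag
Fcrlb: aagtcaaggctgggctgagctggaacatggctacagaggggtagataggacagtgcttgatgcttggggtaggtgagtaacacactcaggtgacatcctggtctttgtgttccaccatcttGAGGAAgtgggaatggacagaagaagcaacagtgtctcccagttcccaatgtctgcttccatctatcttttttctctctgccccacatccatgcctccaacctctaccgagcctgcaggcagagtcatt

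Each library held between 17001352 and 18918686 counts. Replicates varied least in control and IL-4 (biological coefficient of variation 4.48% and 4.54%), and more in IL-13/IL-6 (7.38%), IL-13 (10.9%) and IL-4/IL-6 (14.8%). All 9 macrophage markers were above 3 counts in every library, and their summed level was between 19176 and 21398 normalized CPM (counts scaled to library totals, which were first multiplied by TMM factors) in control, 17437 and 20232 in IL-13, 14876 and 15328 in IL-4, 14499 and 15344 in IL-13/IL-6, and 11961 and 13714 in IL-4/IL-6. The part of these differences in the comparisons below was not tested. The control libraries also held transcripts of genes listed as markers of other cell types. The 10 neutrophil and granulocyte precursor markers summed to between 571.9 and 656.8 normalized CPM in control and to between 48.4 and 147.3 in the 4 cytokine groups, where *Ly6g* and *Retnlg* were at 0 and most of the sum was *Csf3r* and *Mmp8*. The 5 monocyte markers summed to between 173.5 and 185.0 in control and to at most 37.9 elsewhere. The B cell, T cell, mast cell and basophil and dendritic cell lists were also highest in control, at 11.5 to 12.7, 25.1 to 30.3 (nearly all of it *Cd4*, with *Cd3e* at 0), 7.7 to 8.23 and 17.4 to 20.9, against at most 1.66, 1.13, 2.19 and 13.5 in the other groups. The 13.5 was mostly *Cd209a*, whose mean was 11.3 in IL-4/IL-6 and 2.32 in control. The NK cell list was at most 0.75 in any library. Neutrophils and monocytes express Fc receptor genes as well, so these values stand beside every comparison with control below, and their part in those comparisons was not tested. Fewer cells of a type and less RNA per cell cannot be told apart in bulk RNA.

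Levels of different genes are compared here as FPKM, which the authors divided by gene length. On this scale *Fcer1g* was the most abundant of the 8 in control, IL-4, IL-13 and IL-13/IL-6, with group means between 597.1 ± 94.7 (IL-4/IL-6) and 725.9 ± 51.8 (IL-13/IL-6) FPKM (SD, n = 3). *Fcgr3* came next in those 4 groups, and its means went from 223.5 ± 5.57 in IL-13 to 594.0 ± 14.6 in IL-4/IL-6. In IL-4/IL-6 the order of the 2 was not settled, since *Fcgr3* (596.1, 607.4 and 578.4 FPKM) was above *Fcer1g* (564.2, 703.8 and 523.3) in replicates 1 and 3 and below it in replicate 2. *Fcgr1* followed in IL-13 and IL-13/IL-6, with 74.5 ± 4.43 and 180.5 ± 25.7 FPKM, whereas *Fcgr2b* followed in IL-4/IL-6 with 178.7 ± 4.78, *Fcrls* in IL-4 with 68.2 ± 1.37, and *Fcgr4* in control with 65.8 ± 4.43. The *Fcgr4* libraries of control (61.9 to 70.6 FPKM) overlapped those of *Fcgr1* (61.7 to 63.0). *Fcrlb* was the least abundant in every group, at most 4.96 FPKM.

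**Figure D1:**
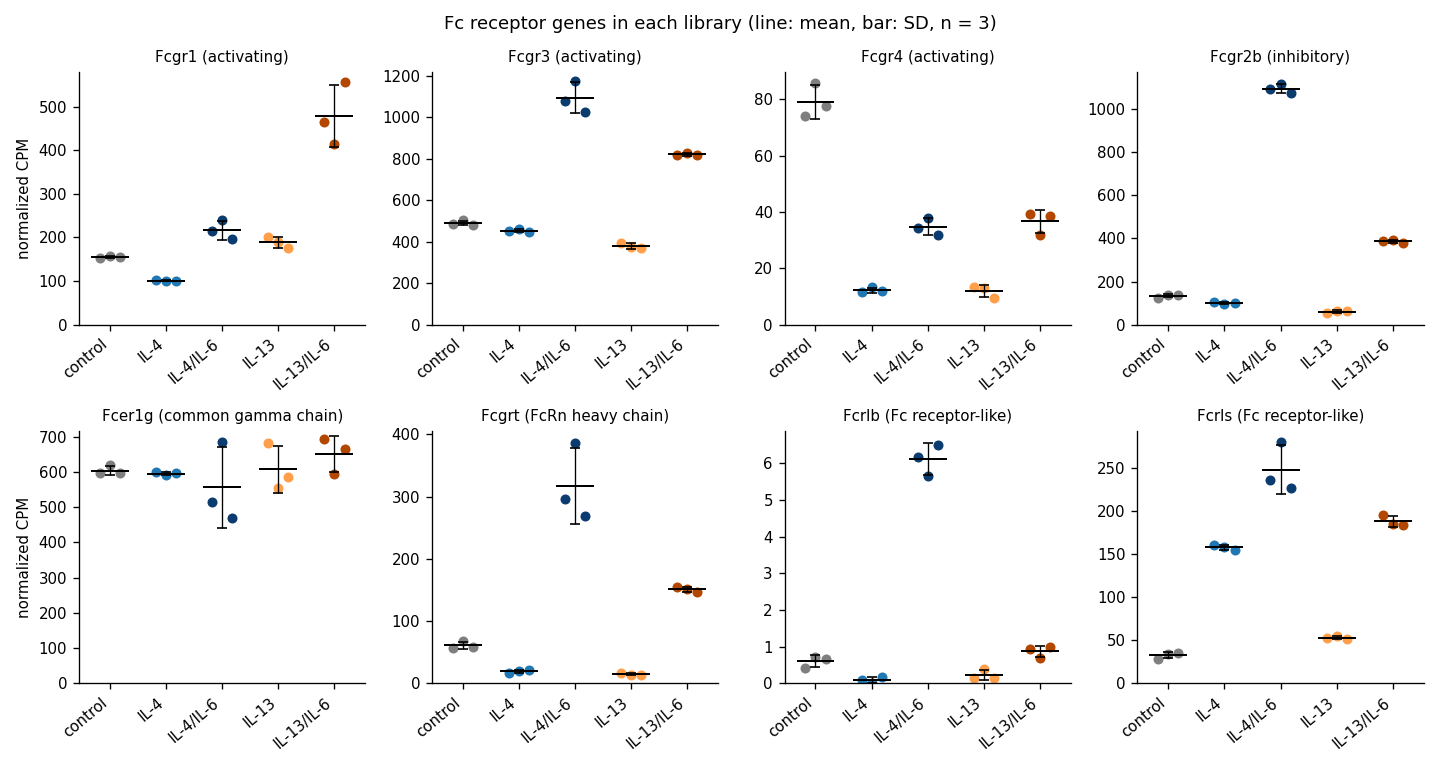
Normalized CPM (y axis, linear, from 0, scaled separately in each panel) of the 8 Fc receptor genes in the 3 libraries of each of the 5 groups (x axis); points are libraries, lines are means and bars are SD (n = 3). *Fcgr2b* stood at 1075 to 1118 in IL-4/IL-6 and below 396 elsewhere, *Fcer1g* overlapped across all groups, and *Fcgr4* was highest in control.

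All comparisons between groups came from a single edgeR quasi-likelihood fit of the 15 libraries, with Benjamini-Hochberg adjustment over 13938 tested genes, and a gene is called where its adjusted p is under 0.05. Cytokine treatment moved most of the transcriptome, and the Fc receptor counts are given beside those shares. In IL-4 versus control, 1 of the 8 genes was higher and 5 were lower, where 32.1% of all tested genes were higher and 35.9% lower. In IL-13 versus control, 2 were higher and 5 lower, against 29.0% and 31.1% of all genes. In IL-4/IL-6 versus control, 6 were higher and 1 lower, against 35.4% and 37.5%. In IL-13/IL-6 versus control, 5 were higher and 1 lower, against 31.9% and 32.1%. Adding IL-6 raised 7 of the 8 and lowered 0 in both cytokine settings. Of all tested genes, 20.7% were higher and 18.7% lower in IL-4/IL-6 versus IL-4, and 12.1% were higher and 13.5% lower in IL-13/IL-6 versus IL-13. The gene outside these counts was *Fcer1g* in both settings. *Fcrlb* passed the filter on low counts through the groups with IL-6, so its part in these counts is not independent of the filter. The median log2 fold change of the 8 genes was 1.4 in IL-4/IL-6 versus IL-4 and 1.72 in IL-13/IL-6 versus IL-13, against 0.04 and 0.01 over all tested genes. A change of more than 1 on the log2 scale was seen in 6 and 7 of the 8 genes, against 14.6% and 10.1% of all genes.

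**Figure D2:**
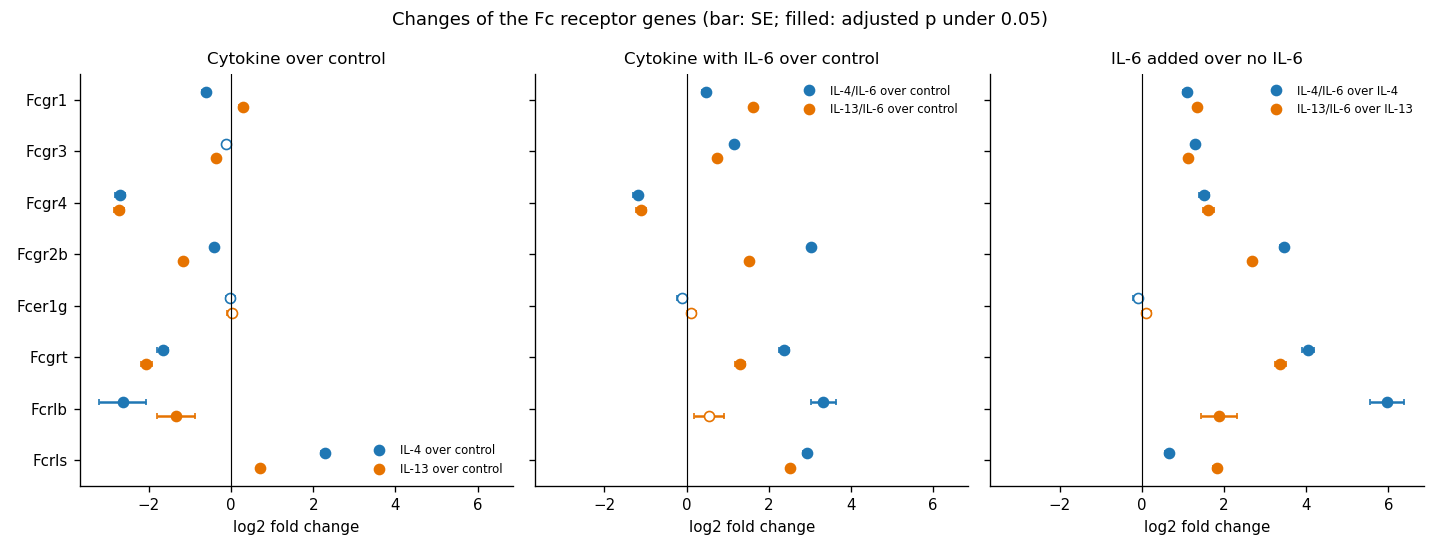
log2 fold changes (x axis) of the 8 Fc receptor genes (y axis) for the cytokine over control (left), the cytokine with IL-6 versus control (middle) and the addition of IL-6 (right), in blue with IL-4 and in orange with IL-13; bars are SE and filled points have an adjusted p under 0.05. Apart from *Fcer1g*, at -0.1 with IL-4 and 0.1 with IL-13, all points of the right panel lie between 0.65 for *Fcrls* and 5.97 for *Fcrlb*. The fitted values of *Fcrlb* depend on very few counts without IL-6.

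*Fcgr1*, the high-affinity IgG receptor, was the gene for which IL-4 and IL-13 moved in opposite directions. Its normalized CPM was 152.1, 157.9 and 154.5 in the control libraries, 102.1, 99.7 and 100.4 in IL-4, and 200.5, 189.8 and 175.1 in IL-13. No IL-4 library reached the lowest control library, and no IL-13 library fell to the highest control library. *Fcgr1* fell by 0.62 on the log2 scale in IL-4 versus control (SE 0.0941, adjusted p = 1.89e-05) and rose by 0.28 in IL-13 versus control (SE 0.0931, adjusted p = 0.0147). In IL-4 versus IL-13 it differed by -0.90 (adjusted p = 3.46e-06). With IL-6 the libraries read 214.2, 239.9 and 195.7 in IL-4/IL-6 and 465.1, 415.2 and 555.9 in IL-13/IL-6. The rise over the cytokine without IL-6 was 2.15-fold with IL-4 (adjusted p = 4.33e-08) and 2.54-fold with IL-13 (adjusted p = 6.39e-09). The difference between these 2 IL-6 changes was -0.24 on the log2 scale, with a 95% interval from -0.53 to 0.05 (adjusted p = 0.369). In the order of levels, IL-13/IL-6 stood apart at the top, IL-4/IL-6 and IL-13 overlapped, and control and then IL-4 followed without overlap.

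*Fcgr3*, the activating low-affinity receptor of IgG immune complexes, was abundant throughout and highest with IL-6. The control libraries held 486.7, 503.1 and 479.8 normalized CPM, the IL-4 libraries 449.9, 459.3 and 446.4, and the IL-13 libraries 393.0, 376.1 and 367.0. The IL-13 libraries all lay below the IL-4 libraries, which all lay below the control libraries. The change in IL-13 versus control was -0.37 on the log2 scale (adjusted p = 2.83e-05), and that in IL-4 versus control was -0.12 (adjusted p = 0.0811). With IL-6, *Fcgr3* read 1080, 1175 and 1027 in IL-4/IL-6 and 818.2, 829.1 and 816.7 in IL-13/IL-6, more than in any library without IL-6. These are rises of 2.42-fold over IL-4 (log2 1.28, SE 0.058, adjusted p = 1.25e-11) and of 2.17-fold over IL-13 (log2 1.12, SE 0.0578, adjusted p = 1.28e-10), which differed from each other by 0.16 (adjusted p = 0.322).

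*Fcgr4*, the activating receptor for IgG2a and IgG2b, was the activating receptor gene with the largest fall. It read 74.0, 85.8 and 77.8 normalized CPM in control, against 11.5, 13.2 and 11.8 in IL-4 and 13.4, 12.9 and 9.43 in IL-13. The IL-4 and IL-13 libraries overlapped each other and lay far below control. *Fcgr4* fell by 2.70 on the log2 scale in IL-4 versus control (SE 0.123, adjusted p = 5.87e-12) and by 2.73 in IL-13 versus control (SE 0.123, adjusted p = 7.98e-12), and the difference between IL-4 and IL-13 was 0.03 with a 95% interval from -0.26 to 0.32. IL-6 brought it to 34.5, 37.9 and 32 in IL-4/IL-6 and to 39.4, 32 and 38.6 in IL-13/IL-6. These are rises of 2.86-fold (adjusted p = 2.4e-08) and 3.08-fold (adjusted p = 2.04e-08), and the libraries of both groups stayed below every control library. *Fcgr4* was thus the 1 gene called lower in both IL-6 groups over control, at -1.19 and -1.11. Granulocyte and monocyte markers were highest in the same control libraries, as given above. Among the granulocyte markers, *Csf3r* was likewise highest in control and higher with IL-6 than without, with means of 172.9 normalized CPM in control, 40.9 in IL-4, 124.0 in IL-4/IL-6, 27.7 in IL-13 and 57.4 in IL-13/IL-6. *Mmp8* went another way, with means of 22.6, 23.9, 10.3, 20.9 and 11.1 in the same groups. *S100a8* and *S100a9* were at most 1.28 in the means of the 4 cytokine groups.

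*Fcgr2b*, the inhibitory IgG receptor, showed a wider range than the activating receptor genes. Its normalized CPM was 125.9, 139.7 and 136.9 in control, 105.3, 96.6 and 98.4 in IL-4, and 53.1, 65.5 and 62.0 in IL-13. Without IL-6 the 3 groups did not overlap, in the order control, IL-4, IL-13. *Fcgr2b* fell by 0.42 on the log2 scale in IL-4 versus control (adjusted p = 6.34e-05) and by 1.16 in IL-13 versus control (adjusted p = 5.4e-10). With IL-6 it read 1096, 1118 and 1075 in IL-4/IL-6 and 386.1, 395.2 and 377.8 in IL-13/IL-6. The lowest IL-13/IL-6 library was above the highest control library, and the IL-4/IL-6 libraries were higher still. The rise was 10.9-fold over IL-4 (log2 3.45, SE 0.0774, adjusted p = 2.13e-15) and 6.42-fold over IL-13 (log2 2.68, SE 0.0758, adjusted p = 9.72e-14). The 2 rises differed by 0.77 on the log2 scale (SE 0.101, adjusted p = 8.63e-05). Over control, *Fcgr2b* was 8.17-fold higher in IL-4/IL-6 and 2.88-fold higher in IL-13/IL-6.

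Activating and inhibitory receptors compete for the same immune complexes, and their transcripts were set against each other as the summed FPKM of *Fcgr1*, *Fcgr3* and *Fcgr4* over the FPKM of *Fcgr2b*. This is a ratio of transcripts and not of receptors at the surface, and it was given no test. It was 18.3, 17.4 and 16.8 in the control libraries and 16.9, 18.8 and 18 in IL-4, which overlapped. It was 34.3, 26.5 and 26.8 in IL-13, 10.2, 9.72 and 11 in IL-13/IL-6, and 3.87, 4.14 and 3.73 in IL-4/IL-6. Apart from control and IL-4, no groups overlapped. As log2 means, the ratio was 4.13 ± 0.061 in control, 4.16 ± 0.0761 in IL-4, 4.86 ± 0.211 in IL-13, 3.36 ± 0.0876 in IL-13/IL-6 and 1.97 ± 0.077 in IL-4/IL-6 (SD, n = 3). The size of the ratio depends on the length scaling of FPKM, and in normalized CPM the log2 means were 2.43, 2.50, 3.27, 1.79 and 0.29 in the same order of groups. Both terms were higher with IL-6. The summed activating transcripts were between 654.9 and 717.6 FPKM in the 6 libraries with IL-6 and between 295.2 and 433.2 in the 9 others. *Fcgr4* made up 14.8% to 16.3% of the activating sum in control and at most 4.6% in any cytokine library. *Fcgr3* alone was 3.19 to 3.51 times *Fcgr2b* in IL-4/IL-6, 7.00 to 7.21 times in IL-13/IL-6 and at least 11.7 times in the other groups.

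**Figure D3:**
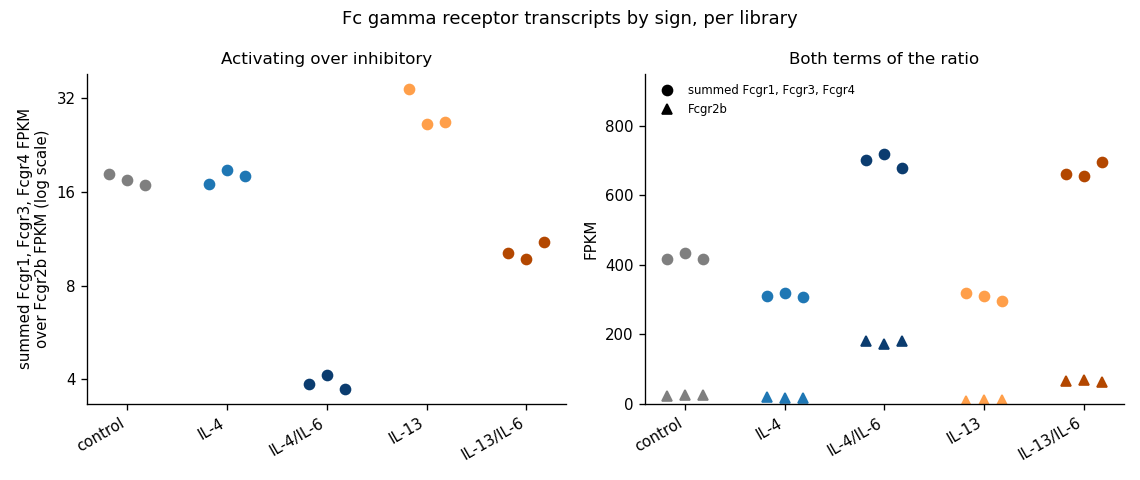
Left, summed FPKM of *Fcgr1*, *Fcgr3* and *Fcgr4* over the FPKM of *Fcgr2b* in each library (y axis on a log scale) by group (x axis); right, both terms in FPKM (linear axis from 0), circles for the activating sum and triangles for *Fcgr2b*. The ratio lies between 3.73 and 4.14 in IL-4/IL-6 and between 26.5 and 34.3 in IL-13.

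*Fcer1g*, the signaling subunit that the activating receptors share, did not follow them. Its normalized CPM was 595.4, 619.4 and 596.2 in control, 598.6, 589.5 and 596.7 in IL-4, and 680.5, 554.4 and 585.1 in IL-13. With IL-6 it was 514.7, 685.8 and 467.7 in IL-4/IL-6 and 693.7, 592.5 and 663.9 in IL-13/IL-6. Each group overlapped its neighbors in the order of levels, and *Fcer1g* was called in none of the comparisons. The difference was -0.10 on the log2 scale in IL-4/IL-6 versus IL-4, with a 95% interval from -0.34 to 0.15 (adjusted p = 0.521), and 0.10 in IL-13/IL-6 versus IL-13, with an interval from -0.14 to 0.34 (adjusted p = 0.576). This result depended on a library and on the method. Without IL-4/IL-6 replicate 2, which held the highest *Fcer1g* value of its group, *Fcer1g* was lower in IL-4/IL-6 versus IL-4 by 0.29 (adjusted p = 0.00634), over control by 0.27 (adjusted p = 0.00538) and over IL-13/IL-6 by 0.40 (adjusted p = 0.000688). With all libraries kept, limma on FPKM called *Fcer1g* lower in IL-4/IL-6 versus control (-0.28, adjusted p = 0.0199) and versus IL-13/IL-6 (-0.29, adjusted p = 0.0411), and with no filter on low counts edgeR called it in IL-4/IL-6 versus IL-13/IL-6 (-0.25, adjusted p = 0.00566) and in IL-13/IL-6 versus control (0.18, adjusted p = 0.0413). In FPKM, *Fcer1g* was 1.69 to 1.71 times the summed activating receptors in control, 2.11 to 2.48 times in IL-4 and IL-13, and 0.773 to 1.16 times in the libraries with IL-6.

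*Fcgrt*, the heavy chain of the IgG-recycling receptor FcRn, fell with either cytokine and rose above control when IL-6 was added. It read 56.4, 67.7 and 58.8 normalized CPM in control, 16.1, 20.7 and 21.0 in IL-4, and 16.7, 13.9 and 13.4 in IL-13. The IL-4 and IL-13 libraries overlapped each other and were all below control, with falls of 1.66 (adjusted p = 8.1e-09) and 2.06 (adjusted p = 9.87e-10) on the log2 scale. With IL-6 it read 296.5, 386.4 and 269.2 in IL-4/IL-6 and 155.0, 151.1 and 147.0 in IL-13/IL-6, and neither group overlapped any other. The rise was 16.5-fold over IL-4 (log2 4.04, SE 0.139, adjusted p = 3.36e-13) and 10.3-fold over IL-13 (log2 3.37, SE 0.139, adjusted p = 9.13e-12). The partner of FcRn, *B2m*, did not rise with it. *B2m* had a mean of 2305 normalized CPM in IL-4, against 1741 with IL-6 added (log2 -0.40, adjusted p = 0.00507), and of 2217 in IL-13 and 1784 in IL-13/IL-6 (log2 -0.31, adjusted p = 0.0352).

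*Fcrlb* was near the limit of detection without IL-6. Its counts were 8, 13 and 12 in control, 2, 0 and 3 in IL-4, 3, 7 and 3 in IL-13, 16, 13 and 18 in IL-13/IL-6, and 109, 96 and 113 in IL-4/IL-6. In normalized CPM this is 6.18, 5.66 and 6.51 in IL-4/IL-6 and at most 1.0 in every other library. Fitted fold changes of so few counts depend on the method. The ratio of the summed counts, each divided by the summed TMM-scaled library totals of its group, is therefore given. Its exact 95% interval covers counting error only. The gene passed the filter on low counts through the groups with IL-6, so the ratios of these groups to the others are given as a description. IL-4/IL-6 was 67.4 times IL-4 (interval 28.6 to 209.0) and 6.99 times IL-13/IL-6 (5.13 to 9.71). IL-13/IL-6 was 3.76 times IL-13 (2.0 to 7.57) and 1.46 times control (0.916 to 2.35). IL-4 was 0.151 times control (0.0462 to 0.39; adjusted p of the fit 0.000589). IL-13 was 0.388 times control (0.188 to 0.758; adjusted p = 0.0207), and this last call was lost without control replicate 2 or 3 or without IL-13 replicate 1 or 3 (adjusted p between 0.0597 and 0.0869).

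*Fcrls* was the gene of the 8 that was called higher over control with both IL-4 and IL-13. It read 28.6, 33.6 and 35.2 normalized CPM in control, 52.8, 54.7 and 51.9 in IL-13, and 159.9, 157.9 and 154.6 in IL-4. With IL-6 it read 195.0, 184.5 and 183.5 in IL-13/IL-6 and 235.7, 279.5 and 226.7 in IL-4/IL-6. None of the 5 groups overlapped, in the order control, IL-13, IL-4, IL-13/IL-6, IL-4/IL-6. The rise over control was 4.85-fold in IL-4 (log2 2.28, SE 0.087, adjusted p = 6.45e-13) and 1.64-fold in IL-13 (log2 0.71, adjusted p = 1.97e-06). IL-6 added 1.57-fold over IL-4 (log2 0.65, SE 0.0807, adjusted p = 4.08e-06) and 3.53-fold over IL-13 (log2 1.82, SE 0.0844, adjusted p = 3.27e-11).

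Set side by side, the IL-4 and IL-13 settings differed in the size of the IL-6 change for 4 of the 8 genes by the interaction test, in which the IL-6 change with IL-13 is subtracted from that with IL-4. The difference was positive for 3 genes, where 3.22% of all tested genes had a positive call, and negative for 1, where 4.42% had a negative call. *Fcrlb*, which passed the filter on low counts through the groups with IL-6, is among the 3. *Fcgr2b* differed by 0.77 (adjusted p = 8.63e-05), *Fcgrt* by 0.68 (SE 0.186, adjusted p = 0.0319), *Fcrlb* by 4.09 and *Fcrls* by -1.17 (SE 0.115, adjusted p = 5.11e-06). The *Fcgrt* call was lost without IL-4 replicate 1, IL-13 replicate 1 or any of the 3 IL-13/IL-6 libraries (adjusted p between 0.0531 and 0.0967), and *Fcer1g*, at -0.20 (adjusted p = 0.592), was called without IL-4/IL-6 replicate 2 (adjusted p = 0.0269). In the direct comparison without IL-6, IL-4 versus IL-13, 3 genes were higher (*Fcgr2b*, 1.66-fold, *Fcgr3*, 1.19-fold, and *Fcrls*, 2.96-fold) and *Fcgr1* was lower, where 5.16% of all genes were higher and 7.61% lower. In IL-4/IL-6 versus IL-13/IL-6, 5 genes were higher and *Fcgr1* was lower, where 15.8% of all genes were higher and 15.5% lower. Those 5 were *Fcgr2b* (2.84-fold), *Fcgr3* (1.33-fold), *Fcgrt* (2.1-fold), *Fcrlb* and *Fcrls* (1.32-fold), and *Fcgr1* stood at 0.452 of its IL-13/IL-6 level (log2 -1.14, SE 0.0933, adjusted p = 6.05e-08).

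**Figure D4:**
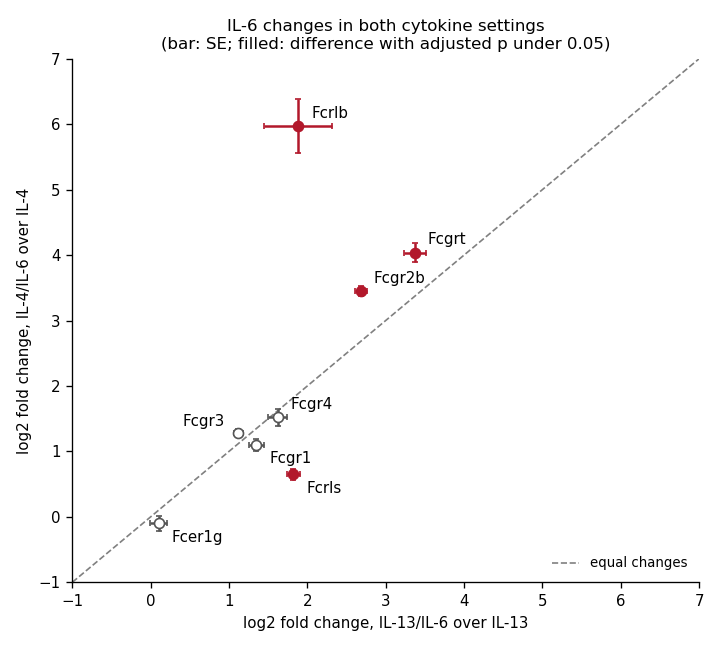
log2 fold change on adding IL-6 to IL-13 (x axis) and to IL-4 (y axis) for the 8 Fc receptor genes; bars are SE, filled red points have an adjusted p under 0.05 for the difference of the 2 changes, and the dashed line marks equal changes. *Fcgr2b*, *Fcgrt* and *Fcrlb* lie above the line and *Fcrls* below it. The fitted value of *Fcrlb* rests on 5 counts in IL-4.

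The signaling genes behind the receptors were examined as 2 lists. The activating list held 25 kinases, adaptors and enzymes downstream of ITAM receptors, of which 24 were tested (*Clnk*, an adaptor, was not). In IL-4 versus control, 5 were higher and 15 lower, where 32.1% and 35.9% of all tested genes were, with a median log2 fold change of -0.38 against -0.05 over all genes. *Fyn*, a SRC-family kinase, had the largest change and rose by 2.78 (adjusted p = 3.39e-15), from 32.9 ± 2.05 to 225.5 ± 1.37 normalized CPM. The SRC-family kinase *Fgr* fell by 1.57 (adjusted p = 1.58e-09), and *Cblb*, a ubiquitin ligase that restrains such signaling although it stands in this list, rose by 1.54. In IL-13 versus control, 4 were higher and 12 lower (29.0% and 31.1% of all genes), with a median of -0.20 against -0.02. *Fyn* rose by 1.94 and *Fgr* fell by 1.36, and *Syk*, the kinase recruited by the common gamma chain, fell by 1.24. *Syk* had a mean of 591.2 normalized CPM in control and of 225.5, 203.5, 249.8 and 248.2 in IL-4, IL-4/IL-6, IL-13 and IL-13/IL-6. In IL-4/IL-6 versus control 5 were higher and 15 lower (35.4% and 37.5% of all genes, median -0.36 against -0.05), and in IL-13/IL-6 versus control 7 were higher and 11 lower (31.9% and 32.1% of all genes, median -0.14 against -0.01).

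On addition of IL-6 to IL-4, 7 genes of the activating list were higher and 7 lower (20.7% and 18.7% of all genes, median 0.06 against 0.04), and in IL-13/IL-6 versus IL-13, 9 were higher and 5 lower (12.1% and 13.5% of all genes, median 0.03 against 0.01). *Malt1*, a scaffold and protease of the CARD9 complex, fell by 1.80 in IL-4/IL-6 versus IL-4 (adjusted p = 6.71e-09), and *Prkcd*, protein kinase C delta, fell by 1.4 (adjusted p = 3.12e-11). In IL-13/IL-6 versus IL-13, *Malt1* fell by 1.07 and *Prkcd* by 0.81, and *Vav1*, a guanine nucleotide exchange factor, rose by 0.81 (adjusted p = 1.14e-08). In the interaction, 2 genes of the list were higher and 6 lower (3.22% and 4.42% of all genes), with *Tec* at 0.76 and *Malt1* at -0.73 among them. In IL-4 versus IL-13, 3 were higher and 8 lower (5.16% and 7.61% of all genes), and in IL-4/IL-6 versus IL-13/IL-6, 4 were higher and 13 lower (15.8% and 15.5%).

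The inhibitory list held 18 genes, mostly of phosphatases, adaptors and ITIM receptors, all tested. In IL-4 versus control, 3 were higher and 12 lower, where 32.1% and 35.9% of all genes were (median -0.72 against -0.05). In IL-13 versus control the counts were 3 and 12, against 29.0% and 31.1% (median -0.35 against -0.02). They were 2 and 15 in IL-4/IL-6 versus control, against 35.4% and 37.5% (median -0.88 against -0.05), and in IL-13/IL-6 versus control 2 and 9, against 31.9% and 32.1% (median -0.39 against -0.01). *Dok2*, an adaptor that dampens kinase signaling, was the gene of the list with the largest rise, by 3.46 in IL-4 versus control (adjusted p = 1.37e-14), from 36.8 ± 5.01 to 403.8 ± 9.63 normalized CPM, and by 3.11 in IL-13 versus control. The ITIM receptor *Cd300lf* fell by 2.61 and the sialic acid-binding receptor *Siglece* by 3.87 in IL-4 versus control, the latter from a mean of 3.53 normalized CPM. *Siglece* had 59 to 71 counts in the control libraries and at most 12 in any cytokine library. It passed the filter on low counts through control, where it is high, so its part in the lower counts over control is not independent of the filter. In IL-4/IL-6 versus IL-4, 4 were higher and 7 lower (20.7% and 18.7% of all genes, median -0.21 against 0.04), and in IL-13/IL-6 versus IL-13, 1 was higher and 4 lower (12.1% and 13.5% of all genes, median 0.01 in the list and over all genes). The ITIM receptors *Clec12a* and *Cd300a* fell in both. *Clec12a* fell by 2.84 in IL-4/IL-6 versus IL-4 (adjusted p = 2.81e-13) and by 1.02 in IL-13/IL-6 versus IL-13 (adjusted p = 9.59e-08), and *Cd300a* by 2.22 and 2.00. *Inpp5d*, which encodes the phosphatase SHIP1 that FcγRIIB recruits, rose by 0.66 in IL-4/IL-6 versus IL-4 (adjusted p = 1.45e-05) and, as the 1 gene of the list called higher there, by 0.37 in IL-13/IL-6 versus IL-13 (adjusted p = 0.00512). In the interaction 1 was higher and 5 lower (3.22% and 4.42% of all genes), in IL-4 versus IL-13 1 and 9 (5.16% and 7.61%), and in IL-4/IL-6 versus IL-13/IL-6 1 and 9 (15.8% and 15.5%).

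**Figure D5:**
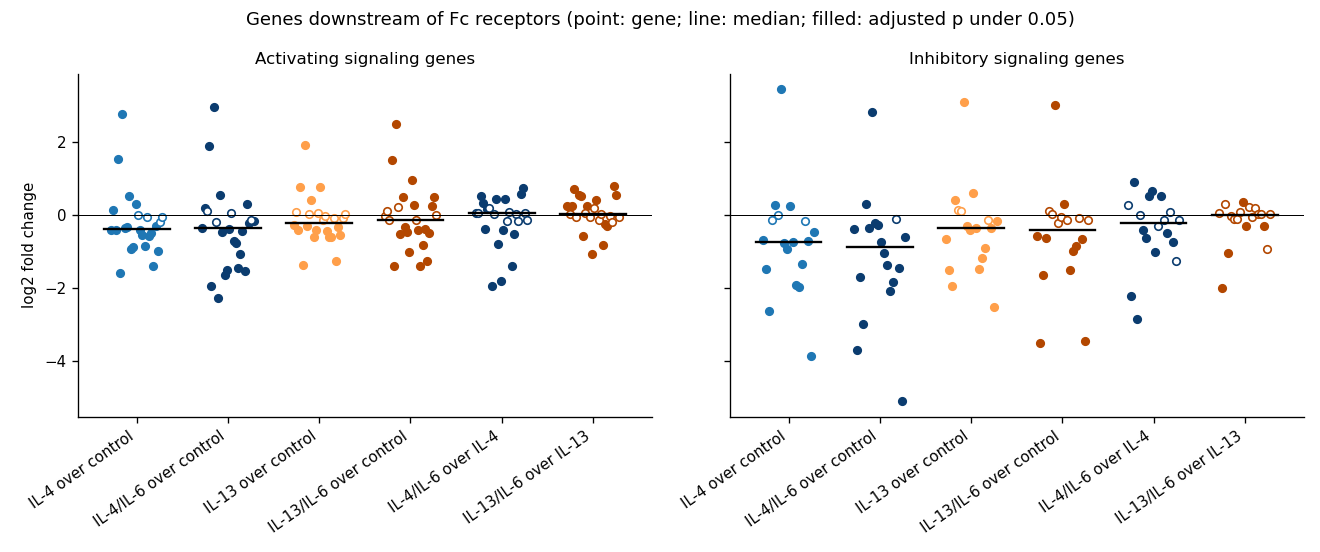
log2 fold changes (y axis) of the 24 tested activating (left) and 18 inhibitory (right) signaling genes in 6 comparisons (x axis); points are genes, lines are medians and filled points have an adjusted p under 0.05. The medians over control lie below 0, between -0.14 and -0.88, and those on adding IL-6 lie between -0.21 and 0.06.

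Of 17 genes of other immunoglobulin receptors and their adaptors and partners, 8 were tested, and *Fcamr*, *Pigr*, *Fcer1a*, *Fcer2a*, *Fcrl5*, *Fcrl6*, *Fcrla*, *Fcgbp* and *Cd247* had too few counts to pass the filter. In IL-4/IL-6 versus IL-4, 1 was higher and 2 lower (20.7% and 18.7% of all genes), and in IL-13/IL-6 versus IL-13, 1 was higher and 3 lower (12.1% and 13.5%). *Tyrobp*, which encodes the ITAM adaptor DAP12, fell by 0.92 in IL-4/IL-6 versus IL-4 (adjusted p = 3.07e-06) and by 0.42 in IL-13/IL-6 versus IL-13 (adjusted p = 0.00837). *Fcrl1*, an Fc receptor-like gene known from B cells, was 11.9 ± 0.85 normalized CPM in control and 1.01 ± 0.397 in IL-4 (log2 -3.54, adjusted p = 3.67e-09), and rose by 1.28 in IL-13/IL-6 versus IL-13, to 9.59 ± 0.185. *Ms4a2*, the beta chain of the IgE receptor of mast cells, had 17 to 26 counts in the control libraries and at most 1 in any cytokine library. *Fcmr*, the IgM receptor of lymphocytes, had 21 to 39 counts in the control libraries and at most 3 in any cytokine library, and both genes were below 0.1 normalized CPM on average in all 4 cytokine groups. Over control, 3 of the 8 were higher and 4 lower in IL-4 (32.1% and 35.9% of all genes), 4 and 4 in IL-13 (29.0% and 31.1%), 1 and 5 in IL-4/IL-6 (35.4% and 37.5%), and 2 and 3 in IL-13/IL-6 (31.9% and 32.1%). *Ms4a2* and *Fcmr* passed the filter on low counts through control, where they are high, so their lower calls in all 4 comparisons with control are not independent of the filter.

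Among 14 genes of factors known to act on Fc receptor genes, all tested, 3 were higher and 6 lower in IL-4/IL-6 versus IL-4 (20.7% and 18.7% of all genes, median 0.04 in the list and over all genes), and 3 higher and 4 lower in IL-13/IL-6 versus IL-13 (12.1% and 13.5%, median 0.03 against 0.01). *Tfec*, a factor of the MITF family in macrophages, had means of 32.7 normalized CPM in control, 15.1 in IL-4, 250.6 in IL-4/IL-6, 9.7 in IL-13 and 61.8 in IL-13/IL-6, and rose by 4.05 (adjusted p = 4.89e-15) and 2.67 (adjusted p = 2.29e-12) with IL-6. *Stat3*, the factor activated by IL-6, rose by 1.72 (adjusted p = 1.51e-11) and 1.63 (adjusted p = 5.6e-11) in the same comparisons. *Irf4*, which IL-4 raised from 6.15 to 37.2 normalized CPM (log2 2.60), fell by 3.51 and 2.06 when IL-6 was added. The interaction called 1 gene higher (*Tfec*, 1.38) and 3 lower, *Irf4* at -1.45 and *Cebpa* at -0.40 among them. Over control, 5 of the 14 were higher and 4 lower in IL-4 (32.1% and 35.9% of all genes), 5 and 5 in IL-13 (29.0% and 31.1%), 6 and 4 in IL-4/IL-6 (35.4% and 37.5%), and 6 and 4 in IL-13/IL-6 (31.9% and 32.1%). These are transcript levels, and say nothing of the activity of the factors.

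The genes whose pattern was most like that of each Fc receptor gene were taken by the Pearson correlation of log2 CPM over the 15 libraries, among 8704 genes with a mean of at least 10 CPM. The 15 points share 5 treatments, so these values are descriptions and were given no p. *Fcgr2b* was most like *Ms4a4a* (r = 0.992), *1810013L24Rik* (r = 0.992) and *Fcgr3* (r = 0.99), with which it shares sequence, as given above. *Ms4a4a* had means of 18.9, 14.1, 317.4, 4.57 and 95.7 normalized CPM in control, IL-4, IL-4/IL-6, IL-13 and IL-13/IL-6. *Fcgr3* was most like *Fcgr2b*, *Flot1* (r = 0.988) and *Ednrb* (r = 0.983). *Fcgrt* was most like *Fgl2* (r = 0.988), *Pla2g15* and *Cd53* (both r = 0.985). *Fcgr4* was most like *Emb* (r = 0.986), *Gm21188* (r = 0.981) and *Ms4a7* (r = 0.975). *Fcgr1* was most like *Zc3h12d* (r = 0.955), *Spp1* (r = 0.953) and *Slc28a2* (r = 0.949), *Fcrls* most like *Rab3il1* (r = 0.973), *Ccl24* (r = 0.972) and *Gm13509* (r = 0.97), and *Fcrlb* most like *Sypl* (r = 0.981), *Psme4* (r = 0.969) and *Rab8b* (r = 0.959). *Fcer1g*, whose groups overlapped, had lower values throughout, with *Tmbim6* first (r = 0.888). Among the 8 themselves, *Fcgr2b*, *Fcgr3*, *Fcgrt* and *Fcrlb* had pairwise r between 0.874 and 0.99, *Fcgr4* and *Fcrls* had r = -0.216, and *Fcgr4* and *Fcgr1* had r = 0.332. Of the 5 genes on chromosome 1, *Fcer1g* had r between -0.283 and 0.0819 with the other 4.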

How the data were processed

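The authors deposited whole-number read counts per gene, not normalized, for 53465 Ensembl genes in 15 libraries, and FPKM values for 26080 of these genes, which the deposited files give per library and which equal the count divided by gene length and library total (192221 values checked, largest relative deviation 7.99e-08). The submitters' processing notes name CASAVA, Bowtie2 2.2.3, HISAT2 2.1.0, TopHat2, DESeq2 and GRCm38, with no role given. The counting tool and the strand setting are not given in the sources used here. The gene lengths behind the FPKM values equal the exonic bases of GENCODE M21 for all 8 genes, so its coordinates are given. Promoters are from RefSeq (GRCm38.p6), and all 8 genes were matched there.

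Counts of all 15 libraries were fitted with edgeR 4.0.16 (R 4.3.3): filterByExpr with a minimum count of 10, TMM factors, and glmQLFit and glmQLFTest with 10 residual degrees of freedom and no covariate. P-values were adjusted over 13938 genes, and a gene was called under 0.05. SE is the absolute log2 fold change divided by the square root of F, and intervals of differences used the t quantile of 10 degrees of freedom. Log2 CPM used a prior count of 2. Replicates of every group differed beyond counting noise (chi-square per gene of at least 2.64). On simulated counts of IL-4/IL-6 versus IL-4 (13517 genes), 77 of 99 genes changed by 1 on the log2 scale and 90 of 97 changed by 2 were recovered, with 9 others called.

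The 8 members, the signaling, receptor, factor and marker lists, and the tests were chosen with earlier results of these data known. From each list, at most the 3 called genes with the largest absolute change were named per comparison, with *Syk*, *B2m*, *Inpp5d*, *Csf3r*, *Mmp8*, *S100a8*, *S100a9* and *Cd209a* described beyond that where a result turns on them. A gene and a detail of the mice are not reported here. For each receptor gene, the 3 genes with the highest correlation were named. The alternatives were upper-quartile factors, DESeq2 1.42.0, no filter on low counts, a mean of at least 1 CPM, a replicate block, only the groups compared, limma 3.58.1 on log2(FPKM + 0.1), the omission of each library, and for the ratio normalized CPM or *Fcgr3* and *Fcgr4* only.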

Additional observations from a re-analysis of the deposited data

Results flagged for a closer look

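The change on adding IL-6 differed between the IL-4 and the IL-13 setting for 4 of the 8 Fc receptor genes by the interaction test of edgeR, 3 of them positive and 1 negative, where 3.22% of all tested genes had a positive and 4.42% a negative call. The difference (IL-4 setting minus IL-13 setting, log2 scale) was 0.77 for *Fcgr2b*, which rose by 3.45 with IL-4 and by 2.68 with IL-13. It was 0.68 for *Fcgrt*, which rose by 4.04 and 3.37, and this call depended on 5 single libraries, as given in the report. It was -1.17 for *Fcrls*, which rose by 0.65 and 1.82, and which IL-4 without IL-6 had already brought to 157.5 normalized CPM, against 53.1 in IL-13. It was 4.09 for *Fcrlb*, a fitted value that rests on 5 counts in IL-4 and 13 in IL-13, and this gene passed the filter on low counts through the groups with IL-6. The cause of these differences was not tested, and the doses of IL-4 and IL-13 differed.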

How the results depend on the processing

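Of 72 gene and comparison pairs, 54 were called, and 52 of these stayed called in the same direction in each of the 22 alternatives that tested them. *Fcrlb* in IL-4 versus control has too few counts to be tested with only the groups compared. The exceptions were *Fcrlb* in IL-13 versus control and *Fcgrt* in the interaction. None of the called values reversed (0 of 54). Values of pairs that were not called changed sign near 0. For *Fcer1g* these were IL-4 versus control (0.056 with no filter on low counts, 0.018 with only the groups compared), IL-13 versus control (-0.003 with upper-quartile factors, -0.025 with limma) and IL-4 versus IL-13 (0.000145 with upper-quartile factors). Leaving out each library in turn gave *Fcer1g* between -0.024 and 0.03 in IL-4 versus control, between -0.049 and 0.084 in IL-13 versus control and between -0.093 and 0.07 in IL-4 versus IL-13, and *Fcgr4* between -0.116 and 0.137 in IL-4 versus IL-13 and between -0.218 and 0.034 in the interaction. *Fcgrt* in IL-4 versus IL-13 (adjusted p = 0.0797) passed the threshold in 6 alternatives, DESeq2 (0.042) and no filter on low counts (0.00101) among them, and *Fcgr3* in IL-4 versus control did with limma (-0.163, adjusted p = 0.00553). *Fcer1g* did so with limma, with no filter on low counts and without IL-4/IL-6 replicate 2 (adjusted p between 0.000688 and 0.0413), in the comparisons named in the report. The ratio of activating to inhibitory transcripts depends on the scale: in normalized CPM its log2 means were 2.433, 2.497, 0.293, 3.27 and 1.79, and with *Fcgr3* and *Fcgr4* only 3.898, 3.965, 1.795, 4.457 and 2.913, in control, IL-4, IL-4/IL-6, IL-13 and IL-13/IL-6.

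With a replicate block, the counts of Fc receptor genes called were 6, 7, 7 and 6 over control (IL-4, IL-4/IL-6, IL-13, IL-13/IL-6), 7 and 7 on adding IL-6, 4 and 6 between the cytokines without and with IL-6, and 4 in the interaction, the same as without it, and the calls over all genes were between 87.2% and 98.3% of those without the block. Same-numbered libraries did not deviate together (30 pairs, r between -0.276 and 0.163, 3 over 0.1, and 0 of 15 libraries closest to their own number in every other group). The number thus showed no sign of a pairing, although so few libraries in each group cannot exclude one.

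Over all genes, upper-quartile factors moved the split of higher and lower calls in IL-4/IL-6 versus IL-4 from 2885 and 2603 to 2073 and 3245 (limma: 1954 and 3283) and in the interaction from 449 and 616 to 352 and 757 (no filter: 391 and 851), and limma moved it in IL-13/IL-6 versus IL-13 from 1684 and 1879 to 1276 and 2262. The median of all genes in IL-4/IL-6 versus control went from -0.0477 to -0.189 with limma. Calls in IL-4 versus IL-13, 1779 in all, were between 1088 and 2915 without single libraries, and those in IL-4/IL-6 versus IL-13/IL-6 fell from 4368 to 2900 with only the groups compared. Depth limits the values of *Fcrlb*.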
